A study of Mus musculus with 12 samples.

Results

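The respiratory chain of mitochondria is assembled from protein complexes whose subunits are encoded mostly in the nucleus, and the transcripts of those nuclear genes were followed here across mouse glomeruli and cultured podocytes. Genes were taken by symbol: Sdha, Sdhb, Sdhc, Sdhd, Cyc1 and every symbol beginning with Ndufa, Ndufb, Ndufc, Ndufs, Ndufv, Uqcr, Cox4 to Cox8 or Atp5, with the Ndufaf assembly factors left out. The annotation of assembly GRCm38.p6 holds 108 such symbols, of which 89 are protein coding and 19 are pseudogenes. Of these, 86 had a probe matched by accession, and 84 passed the filter on dim probes, out of 15217 genes tested. They comprise 38 genes named for complex I, 4 of complex II, 9 of complex III, 16 of complex IV and 17 of complex V. Cox8b and Cox8c had a probe that did not pass, and Ndufb1, Ndufb4b and Ndufb4c had no probe. Of the 13 subunits encoded by mitochondrial DNA, 0 were among the genes tested.

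Complex I (NADH dehydrogenase), complex II (succinate dehydrogenase), complex III (cytochrome bc1) and complex IV (cytochrome c oxidase) pass electrons to oxygen. All of these except complex II also pump protons, and complex V (ATP synthase) uses the proton gradient to make ATP. Complexes I, II, III and V have small sets of nuclear-encoded core subunits, among them the flavin and iron-sulfur proteins, cytochrome c1 and the catalytic F1 head, and many further subunits surround these, whereas the catalytic subunits of complex IV come from mitochondrial DNA. In the kidney the proximal tubule is especially rich in mitochondria, while podocytes, which cover the capillaries of the glomerulus, are usually described as relying on glycolysis to a larger extent.

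The mice carried an Inducible-Cre with Foxc1flox/flox and a second floxed Foxc gene, and Foxc1 and Foxc2, named in the series title, encode forkhead transcription factors. All 12 samples, controls included, are labelled with this kind of genotype, but the number written for the second gene changes with each sample, so it is taken from the title. One pair of glomerular samples was from tamoxifen-treated mice, injected intraperitoneally once they were 8 weeks old, over 3 days in a row, and glomeruli were taken on day 7. The other pair was from controls that received no agent and whose age is not stated. Primary podocyte cultures, expanded from glomeruli of adult mice, received tamoxifen in its active form or a mock treatment, for 4 days or for 7 days, with 2 samples in each of these groups. The labels do not name the promoter that drives the Cre, and each treated sample had the drug together with any recombination it caused. They also do not say whether numbered cultures were separate cultures, so p-values measure the spread between these samples, which may be technical.

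Each sample was hybridised to 1 one-colour Agilent array. Between 57.9% and 63.4% of spots were well above background per array, and 0 spots were saturated. The 4 glomerular arrays shared a slide, as did the 4 arrays of day 4 and the 4 arrays of day 7. Each tamoxifen comparison therefore lies within 1 slide, whereas culture against glomeruli and day 7 against day 4 cannot be told apart from the slide. Levels are given as log2 of the processed signal after subtracting that array's own 75th percentile, so a difference of 1 is a 2-fold change. The Foxc2 probe read -1.12 and -0.19 in treated glomeruli and 2.10 and 2.24 in control glomeruli. Foxc1 read 0.92 and 1.09 in treated and 2.92 and 2.80 in control glomeruli. In cultures Foxc2 read -7.80 to -5.42 with tamoxifen and 1.38 to 1.76 with mock treatment. Foxc1 read -8.20 to -1.74 and 2.62 to 4.33 there. The Foxc2 and Foxc1 probes were well above background on 8 and 10 of the 12 arrays. The podocyte marker Nphs1, which encodes nephrin, read 4.36 to 5.06 in glomeruli but 0.06 to 1.51 in cultures, while Wt1 read 4.93 to 6.02 on all 12 arrays. With 2 against 2 samples a two-sided exact permutation p cannot go below 0.333, so adjusted p-values are limma's, with Benjamini-Hochberg adjustment over all genes tested, and a gene is called at an adjusted p under 0.05. In bulk samples fewer cells of a type and less RNA per cell cannot be told apart.

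In glomeruli of tamoxifen-treated mice 3 subunits were higher than in control glomeruli and 0 were lower. They were Uqcrfs1, Ndufc2 and Sdhb, each 1.45 to 1.54 times its control level. The other 81 did not pass, but the shift was broad, since the treated mean was the higher one for 80 of 84 subunits, and their median difference was 0.36, beside -0.05 over all genes. On these arrays 2.64% of all genes were called (1.76% higher and 0.881% lower), against 3.57% of the subunits. Both treated arrays lay above both controls for 64 of the 84, where 20.0% of all genes did so, and below both controls for 2, where 27.8% of all genes did.

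Uqcrfs1 encodes the Rieske iron-sulfur protein, through which complex III passes electrons to cytochrome c1. It read 3.94 and 3.88 in treated glomeruli and 3.23 and 3.37 in control glomeruli. The groups did not overlap, and the difference was 0.61 (SE 0.10, limma adjusted p = 0.028). Ndufc2, an accessory subunit of the membrane arm of complex I, read 4.19 and 4.26 in treated glomeruli and 3.47 and 3.72 in control glomeruli, a difference of 0.62 (SE 0.11, limma adjusted p = 0.034). Both of its treated values were well clear of both controls. Sdhb carries the iron-sulfur clusters of complex II and read 5.46 and 5.34 in treated glomeruli, against 4.78 and 4.95 in control glomeruli. Its difference of 0.53 (SE 0.11, limma adjusted p = 0.048) lay close to the threshold. When single arrays were left out the differences stayed at 0.54 to 0.68 for Uqcrfs1, 0.50 to 0.75 for Ndufc2 and 0.45 to 0.62 for Sdhb, but the calls did not hold. Without control replicate 2 there were 17 calls, without any other 1 of the 12 arrays 0 or 1, and on the 4 glomerular arrays alone 0. Calls were also lost without a culture array, which enters only the shared estimate of the spread and the adjustment.

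All 4 subunits of succinate dehydrogenase had higher values on both treated arrays than on both controls. Sdha, the flavoprotein that oxidises succinate, read 4.14 and 4.12 in treated glomeruli and 3.81 and 3.81 in control glomeruli (difference 0.32, limma adjusted p = 0.28). Sdhc, a membrane anchor, read 3.66 and 3.49 in treated and 2.87 and 3.34 in control glomeruli (difference 0.47, limma adjusted p = 0.16). Sdhd, the other anchor, read 3.99 and 4.01 in treated and 3.40 and 3.63 in control glomeruli (difference 0.48, limma adjusted p = 0.061). Complex II had the largest median difference of the complexes, 0.48, but its genes are few, and the medians of complexes I, III, IV and V were 0.34, 0.39, 0.38 and 0.36.

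In complex I 36 of 38 genes had the higher mean in treated glomeruli. The largest difference in the complex was that of Ndufab1, the mitochondrial acyl carrier protein, which read 0.03 and -0.01 in treated glomeruli and -1.09 and -0.47 in control glomeruli and did not pass (0.79, SE 0.24, limma adjusted p = 0.12). Ndufb9, a membrane arm subunit, read 5.54 and 5.54 in treated and 5.01 and 5.14 in control glomeruli and came close to the threshold (0.46, limma adjusted p = 0.051). At the other end was Ndufa11, at 2.05 and 2.23 in treated and 2.14 and 2.24 in control glomeruli. Its groups overlapped, with a difference of -0.05. In complex III all 9 means were higher in treated glomeruli. The small subunit Uqcrq read 5.61 and 5.69 in treated and 5.07 and 5.32 in control glomeruli (0.46, limma adjusted p = 0.14), whereas cytochrome c1, Cyc1, differed by 0.13 (SE 0.10).

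In ATP synthase all 17 means were higher in treated glomeruli and 0 genes passed. Atp5pb, of the peripheral stalk, read 3.59 and 3.58 in treated glomeruli and 2.82 and 3.19 in control glomeruli (0.58, SE 0.13, limma adjusted p = 0.065). Atp5g1, a gene for the c-ring subunit, read 5.54 and 5.53 in treated and 4.76 and 5.20 in control glomeruli (0.56, limma adjusted p = 0.10). In both, the control arrays lay further apart than the treated ones. The catalytic subunits Atp5a1 and Atp5b differed by 0.10 (SE 0.12) and 0.23 (SE 0.12) and did not pass.

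Complex IV held both ends of the range. Cox7a1, the heart and muscle form of subunit VIIa, read 1.62 and 1.18 in treated and -0.17 and 0.40 in control glomeruli, a difference of 1.29 with an SE of 0.53 (limma adjusted p = 0.25). Cox6a2, the heart and muscle form of subunit VIa, read -2.64 and -3.56 in treated and -4.33 and -3.49 in control glomeruli, so its groups overlapped (0.80, limma adjusted p = 0.64). Cox7b2, a form known from testis, was well above background only on the 2 control glomerular arrays, and in treated glomeruli it was at least 1.15-fold lower (limma adjusted p = 0.10). That bound sets the control mean against the lowest signal that counts as above background, or the probe's own value where higher, on each treated array. Cox7b2 passed the filter only through those 2 control arrays, so the filter favoured a lower value on the others. Its control arrays themselves lay 0.33 apart. Cox7a2l, which helps join complexes III and IV into supercomplexes, was the other subunit below both controls, at 5.19 and 5.20 in treated and 5.39 and 5.43 in control glomeruli (-0.21, SE 0.10, limma adjusted p = 0.29).

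**Figure D1:**
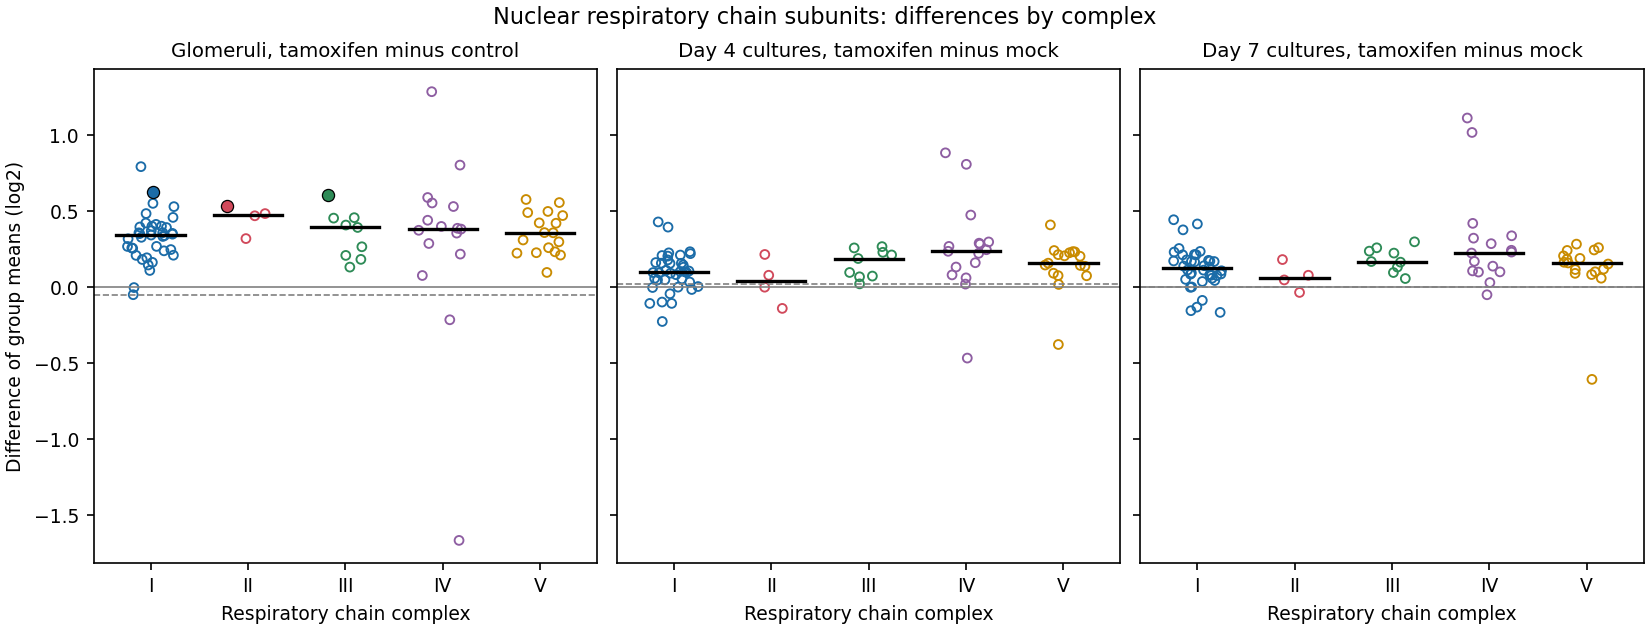
Each point is 1 subunit, placed by its complex (horizontal axis) and by its tamoxifen difference in log2 units (vertical axis), in glomeruli, day 4 cultures and day 7 cultures. Filled points are the 3 called genes, Uqcrfs1, Ndufc2 and Sdhb; black bars are medians per complex and the dashed line the median of all genes. In glomeruli nearly all points lie above 0, and the lowest is Cox7b2, which is not well above background in treated glomeruli.

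The size of the glomerular shift depended on which control array served for comparison. Control replicate 2 was higher than control replicate 1 for 80 of 84 subunits, with a median gap of 0.29, while over all genes the median gap was 0.00. Against control replicate 1 the median subunit was 0.45 higher on treated replicate 1 and 0.48 higher on treated replicate 2. Against control replicate 2 those medians were 0.19 and 0.22, with 67 and 79 of the 84 subunits higher. The treated arrays differed from each other by a median of 0.01. The median gap between the control arrays was thus wider than that between control replicate 2 and either treated array.

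**Figure D2:**
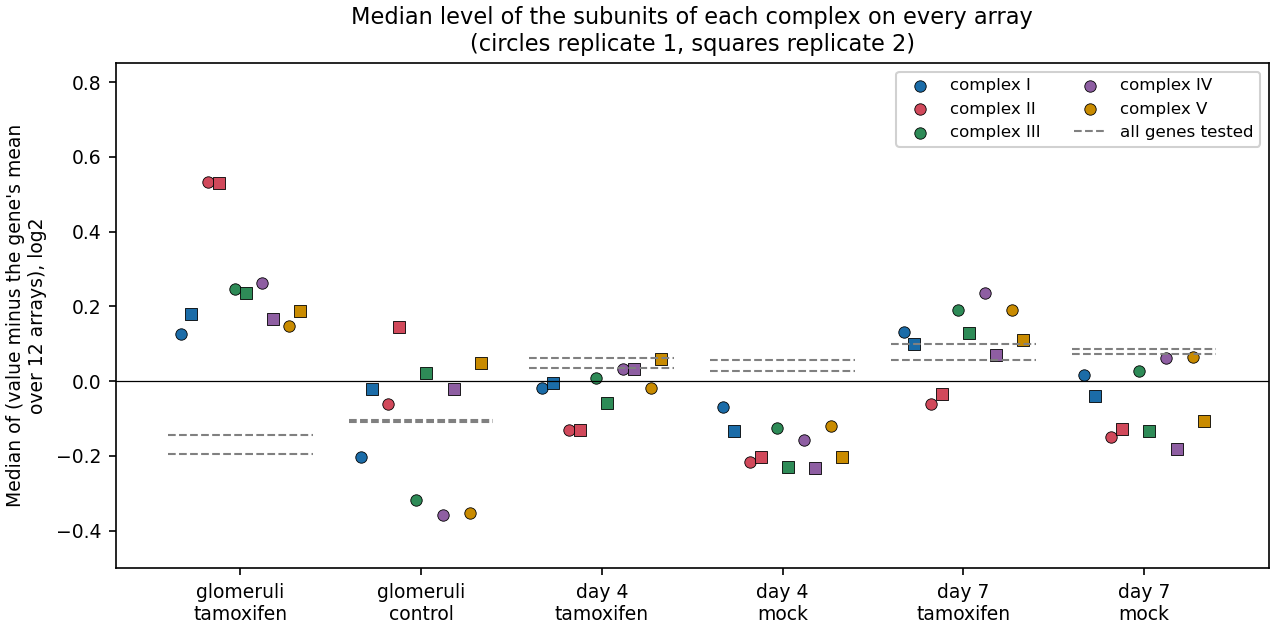
For each array the plot gives the median, over the subunits of a complex, of a gene's value minus its own mean over the 12 arrays (log2). Circles are replicate 1, squares replicate 2 and dashed lines the median over all genes on each array. Control glomeruli replicate 1 lies below replicate 2 in all 5 complexes, and both treated glomerular arrays lie above both control arrays in all 5.

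On the same arrays markers of other cells moved too, and their part in the subunit result was not tested. All 19 proximal tubule markers tested had higher values on both treated arrays, with a median difference of 1.54, and 3 of them rose. Their summed level on the log2 scale was 9.20 and 8.48 in treated and 7.35 and 7.64 in control glomeruli. Treated replicate 1 exceeded treated replicate 2 in all 19 tubule markers, by a median of 0.83. Between the controls the tubule markers differed by a median of 0.09. Markers of the loop, distal tubule and collecting duct had a median of 0.77 over 19 genes, of which 2 rose. Podocyte markers had a median of -0.43 over 20 genes, of which 2 fell, and immune and red cell markers had medians of -0.87 and -4.50. Mesangial and mural cell markers had a median of 0.33, with 15 of 17 means higher and 1 called higher, Acta2. Endothelial markers had a median of -0.33, with 15 of 18 means lower and 0 called.

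Other mitochondrial gene lists also had positive medians in treated glomeruli, to different extents. Over all genes the median was -0.05, and 18.3% of all genes had an unadjusted p under 0.05. Of 18 genes for the tricarboxylic acid cycle and pyruvate dehydrogenase all 18 means were higher, with a median of 0.28, and 0 passed (8 had an unadjusted p under 0.05). Fatty acid oxidation genes had a median of 0.38 over 18 genes, of which Echs1 (0.62) and Etfa (0.54) rose. Of 14 regulators of mitochondrial biogenesis 9 means were higher and 5 lower, with a median of 0.07. The 1 that rose was Esrra, which encodes a nuclear receptor that drives mitochondrial genes (0.48, SE 0.09, limma adjusted p = 0.042). The medians were smaller for 43 assembly factors of the respiratory chain (0.15) and 77 proteins of the mitochondrial ribosome (0.13), with 0 calls in either list (8 and 11 at an unadjusted p under 0.05). Among 18 genes of glycolysis and the hypoxia response the median was 0.23 and 0 passed (1 at an unadjusted p under 0.05).

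In cultures the subunit medians were also positive, and 0 of 84 subunits passed at either time. At day 4 the tamoxifen mean was higher for 73 of 84 subunits, with a median of 0.14, beside 0.02 over all genes, and limma called 0.21% of all genes (0.092% higher). Both treated arrays exceeded both mock arrays for 55 subunits, where 29.0% of all genes did, and were below both for 2, where 21.4% of all genes were. At day 7 the tamoxifen mean was higher for 76 of 84, with a median of 0.16 beside 0.00 over all genes, and 0.979% of all genes were called. Both treated arrays were above both mock arrays for 48, where 22.1% of all genes were, and below both for 2, where 19.1% were. Mock replicate 2 was higher than mock replicate 1 for 25 of 84 subunits at day 4, with a median gap of -0.05. At day 7 it was higher for 14 of 84, with a median gap of -0.13, beside -0.01 over all genes. Against day 7 mock replicate 1 the treated medians were 0.12 and 0.04, and against mock replicate 2 they were 0.24 and 0.18. The size of the day 7 shift thus depended on the mock array. By limma without adjustment 3 subunits had p under 0.05 at day 4 and 2 at day 7.

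Complex IV had the largest medians in cultures, 0.24 at day 4 and 0.23 at day 7, and complex II the smallest, 0.04 and 0.06. Among the complex IV genes were Cox8a, which read 6.75 and 6.79 in tamoxifen-treated and 6.49 and 6.46 in mock cultures at day 4, and 6.91 and 6.72 in tamoxifen-treated and 6.65 and 6.51 in mock cultures at day 7. Its groups did not overlap at either time (differences 0.30 and 0.23, SE 0.12 each, limma adjusted p = 0.42 and 0.52). Ndufa4, named for complex I but since assigned to complex IV, read 4.60 and 4.61 in tamoxifen-treated and 4.22 and 4.13 in mock cultures at day 4. At day 7 it read 4.52 and 4.61 in tamoxifen-treated and 4.23 and 4.06 in mock cultures. The differences of 0.43 and 0.42 (SE 0.13 each) had limma adjusted p-values of 0.27 and 0.23. In glomeruli Ndufa4 differed by 0.48 (limma adjusted p = 0.10), so its treated arrays were above their controls in all 3 comparisons.

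In complexes III and V the larger culture differences included those of Uqcr10 (0.26 at day 4 and 0.30 at day 7), Uqcrh, the hinge protein of complex III (0.27 and 0.26), Atp5g3, another c-ring gene (0.41 and 0.18), Atp5mpl (0.24 and 0.24), Atp5md (0.21 and 0.26) and Atp5k (0.23 and 0.28), with limma adjusted p-values of 0.42 to 0.75. None of these passed. At the low end was Atp5o, of the peripheral stalk, which read 1.39 and 1.24 in tamoxifen-treated and 2.16 and 1.22 in mock cultures at day 4, and 2.53 and 0.89 in tamoxifen-treated and 2.86 and 1.78 in mock cultures at day 7. Its groups overlapped at both times, and the differences of -0.38 and -0.61 each had an SE of 0.57.

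None of the 4 complex II subunits passed in cultures. Sdha read 3.09 and 3.31 in tamoxifen-treated and 3.30 and 3.38 in mock cultures at day 4, and 3.23 and 3.52 in tamoxifen-treated and 3.30 and 3.52 in mock cultures at day 7 (-0.14 and -0.03, SE 0.14 each). Sdhb read 4.50 and 4.63 in tamoxifen-treated and 4.60 and 4.54 in mock cultures at day 4, and 4.64 and 4.71 in tamoxifen-treated and 4.66 and 4.60 in mock cultures at day 7 (0.00 and 0.05, SE 0.11 each). In both genes the groups overlapped at each time. Sdhc read 3.29 and 3.28 in tamoxifen-treated and 3.15 and 3.27 in mock cultures at day 4, and 3.31 and 3.23 in tamoxifen-treated and 3.18 and 3.20 in mock cultures at day 7 (0.08 and 0.08). Sdhd read 3.54 and 3.41 in tamoxifen-treated and 3.26 and 3.25 in mock cultures at day 4, and 3.54 and 3.49 in tamoxifen-treated and 3.34 and 3.32 in mock cultures at day 7 (0.22 and 0.18), and its treated arrays were above the mock arrays at both times. Ndufa5 and Ndufa6, accessory subunits of complex I, were at -0.11 and -0.23 at day 4 and at -0.13 and -0.17 at day 7.

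**Figure D3:**
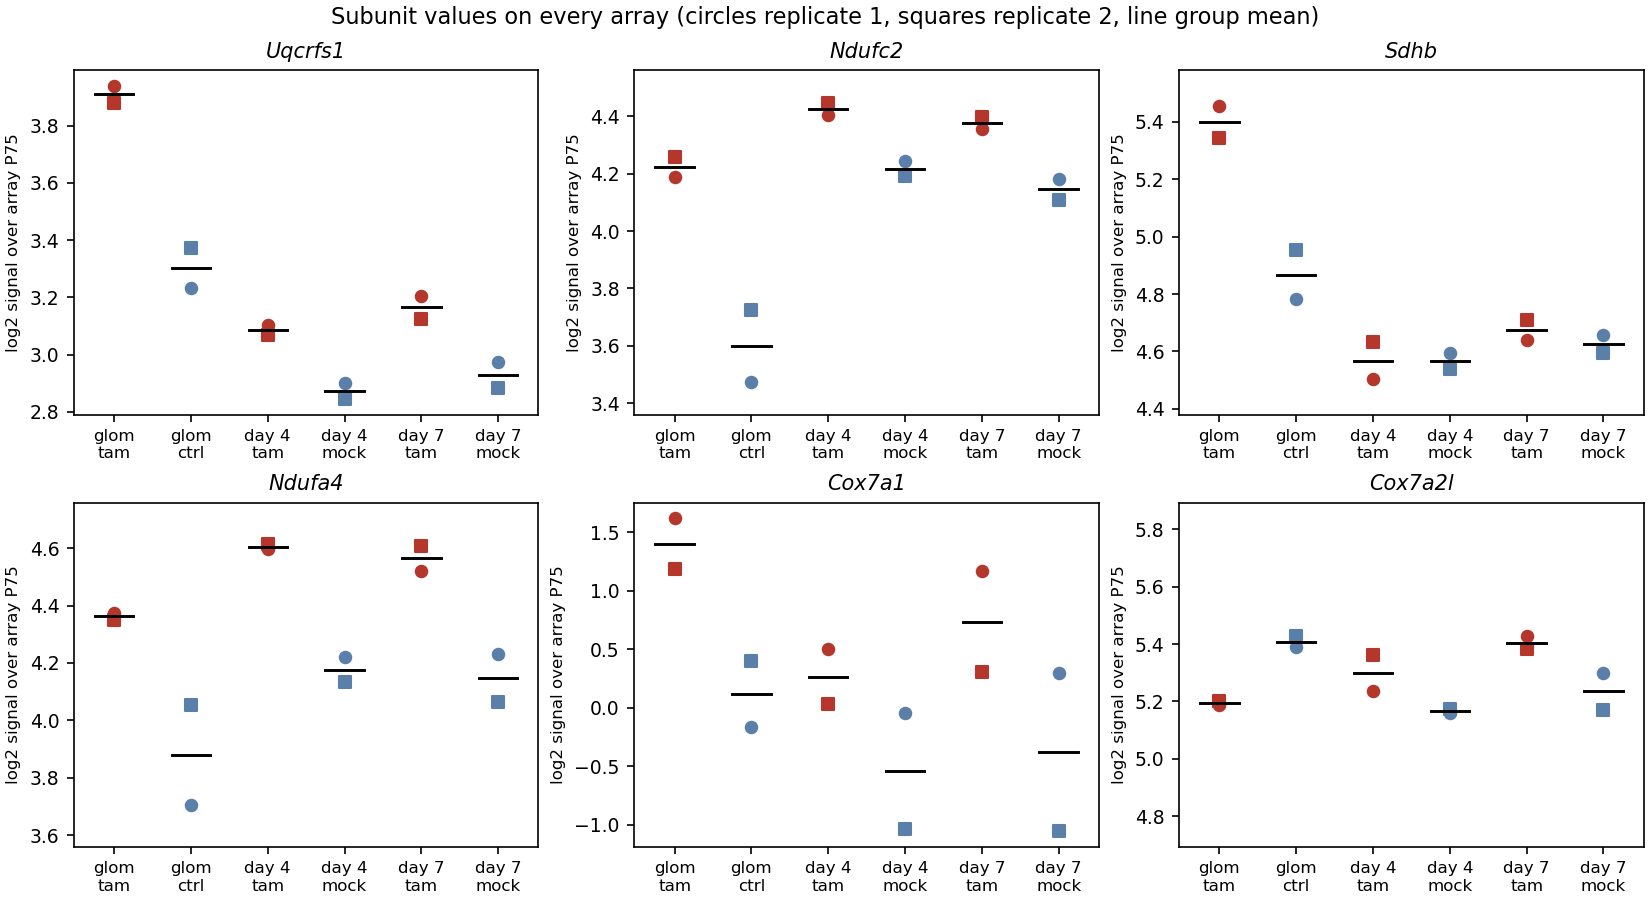
Values on all 12 arrays (vertical axis, log2 signal relative to the array's 75th percentile) for the 3 called subunits Uqcrfs1, Ndufc2 and Sdhb and for Ndufa4, Cox7a1 and Cox7a2l. Circles are replicate 1, squares replicate 2 and lines group means. Sdhb is separated by treatment only in glomeruli (0.53, against 0.00 and 0.05 in cultures), Ndufa4 in all 3 comparisons, and Cox7a2l is lower on both treated arrays in glomeruli and higher in cultures.

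Each of the 3 tamoxifen comparisons had its own controls, but the culture comparisons at day 4 and day 7 may not be independent of each other. Over the subunits, deviations from the group means correlated between same-numbered arrays of the 2 times, at r = 0.77 in mock and 0.67 in tamoxifen-treated cultures. The labels give no pairing, and such deviations do not enter differences of group means, so the correlation does not settle this. Across the 3 comparisons 31 of 84 subunits (36.9%) had both treated arrays above both controls every time, where 732 of 15217 genes (4.81%) did. The treated mean was the higher one every time for 70 of 84 subunits, and for 3311 of 15217 genes. By its brightest probe Cox7a2l was the only subunit on opposite sides without overlap, below its controls in glomeruli and above the mock arrays at both culture times (-0.21, 0.13 and 0.17). That turn rested on the probe, since another of its 3 probes gave -0.26, 0.14 and 0.13, but the third gave -0.96, -0.06 and -0.09. The test of the difference between responses, on the brightest probe, gave -0.37 (SE 0.12, limma adjusted p = 0.17). The glomerular response exceeded the mean culture response for 76 of 84 subunits, where it did so for 44.0% of all genes. The median over the subunits was 0.18, beside -0.05 over all genes. Without control glomeruli replicate 1 the subunit median was 0.038, with 52 of 84 higher, and without control glomeruli replicate 2 it was 0.358. None of these differences passed (0 of 84, beside 1.09% of all genes called). An unadjusted p under 0.05 was found for 14 of the 84, where 16.9% of all genes had one. The largest in complex II was that of Sdhb (0.51, SE 0.13, limma adjusted p = 0.11). Between the day 7 and day 4 responses 0 subunits and 0.0% of all genes were called by limma. Without adjustment 0 subunits had p under 0.05, beside 0.894% of all genes.

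Other lists were set beside the subunits in the same culture comparisons. Glycolysis and hypoxia response genes had medians of 0.49 at day 4 and 0.55 at day 7, with 18 and 17 of 18 means higher in tamoxifen-treated cultures and 0 calls (5 at an unadjusted p under 0.05 at each time). Pgk1, a glycolytic kinase, read 6.74 and 6.18 in tamoxifen-treated and 5.80 and 5.07 in mock cultures at day 4 (1.02, limma adjusted p = 0.33). Fatty acid oxidation genes, at -0.01 and 0.02, and tricarboxylic acid cycle genes, at 0.05 and 0.05, had medians near 0. Markers of other cells moved in cultures as well, and their part in the subunit values was not tested. Immune markers had medians of -0.50 at day 4 and -0.85 at day 7, with 14 and 16 of 19 means lower and 0 called. Podocyte markers had medians of -0.35 and -0.37, with 13 and 14 of 20 means lower and 7 and 6 higher. The 1 called was Clic5, which fell at day 7 (-1.57). Mesangial and mural markers had medians of -0.11 and -0.26, with 9 and 10 of 17 means lower and 8 and 7 higher. The 1 called was Rgs5, which fell at day 7 (-2.82). Markers of the parietal epithelium had medians of 0.41 and 0.18, with 8 and 7 of 10 means higher, although Cldn1 fell at day 7 (-1.95). Proximal tubule markers had medians of 0.16 and 0.01, and in cultures their summed level was -0.63 to -0.24 with tamoxifen and -0.66 to -0.22 in mock cultures, against 7.35 to 9.20 in glomeruli.

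**Figure D4:**
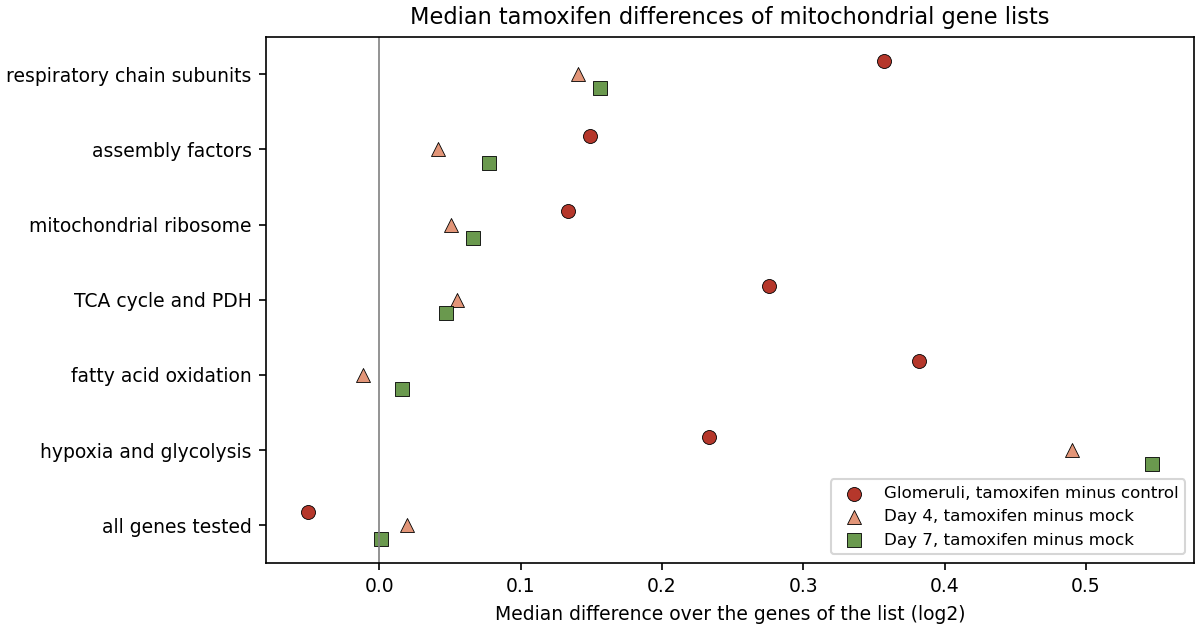
The horizontal axis gives the median log2 difference over the genes of a list, tamoxifen minus control or mock, for the subunits, for 5 other lists and for all genes tested. Circles are glomeruli, triangles day 4 and squares day 7 cultures. The subunits lie at 0.36, 0.14 and 0.16, whereas fatty acid oxidation genes lie at 0.38 in glomeruli and near 0 in cultures, and glycolysis and hypoxia genes lie higher in cultures than in glomeruli.

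Some complex IV subunits and Ndufa4 exist as pairs of a general and a tissue-restricted form. Among the general forms, Cox4i1, Cox6a1, Cox6b1, Cox7a2 and Cox8a had tamoxifen differences of 0.02 to 0.37 over the 3 comparisons. Cox4i1 read 6.49 and 6.35 in treated and 5.98 and 6.16 in control glomeruli, and 6.21 and 6.20 in tamoxifen-treated and 6.0 and 5.96 in mock cultures at day 4, and 6.32 and 6.15 in tamoxifen-treated and 6.21 and 5.98 in mock cultures at day 7. Cox7a2 read 4.77 and 4.76 in treated and 4.16 and 4.62 in control glomeruli, and 4.34 and 4.25 in tamoxifen-treated and 4.13 and 3.90 in mock cultures at day 4, and 4.54 and 4.31 in tamoxifen-treated and 4.28 and 3.93 in mock cultures at day 7. The treated arrays of Cox7a2 were above their controls in all 3 comparisons, and those of Cox4i1 in glomeruli and at day 4 but not at day 7. Cox6a1, the general form of subunit VIa, read 7.53 and 7.57 in treated and 7.42 and 7.53 in control glomeruli, and 7.62 and 7.63 in tamoxifen-treated and 7.58 and 7.55 in mock cultures at day 4, and 7.73 and 7.67 in tamoxifen-treated and 7.77 and 7.57 in mock cultures at day 7. Cox6b1 read 2.54 and 2.49 in treated and 2.19 and 2.41 in control glomeruli, and 2.12 and 2.28 in tamoxifen-treated and 2.27 and 2.09 in mock cultures at day 4, and 2.59 and 2.39 in tamoxifen-treated and 2.52 and 2.26 in mock cultures at day 7. Cox8a read 6.75 and 6.81 in treated and 6.36 and 6.62 in control glomeruli.

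The restricted forms Cox7a1 and Cox6a2 had larger differences than their general counterparts, and their replicates lay further apart. Cox7a1 read 0.50 and 0.03 in tamoxifen-treated and -0.05 and -1.04 in mock cultures at day 4, and 1.16 and 0.30 in tamoxifen-treated and 0.29 and -1.06 in mock cultures at day 7. Within each treatment replicate 1 was the higher, and the tamoxifen differences were 0.81 and 1.11 (SE 0.53 each, limma adjusted p = 0.668 and 0.465). Cox6a2 read -2.11 and -3.41 in tamoxifen-treated and -2.76 and -4.53 in mock cultures at day 4, and -1.58 and -3.12 in tamoxifen-treated and -3.03 and -3.70 in mock cultures at day 7 (0.88 and 1.02, SE 0.77 each, limma adjusted p = 0.775 and 0.682). Its groups overlapped at both times.

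Ndufa4l2, the hypoxia-induced relative of Ndufa4, read 2.78 and 0.57 in tamoxifen-treated and 2.63 and 0.27 in mock cultures at day 4, and 2.60 and 1.56 in tamoxifen-treated and 2.65 and 0.62 in mock cultures at day 7. In each of these groups replicate 1 was at least 1 log2 unit above replicate 2, and the SE of 1.05 exceeded the differences of 0.23 and 0.44. Glomeruli gave 2.62 and 2.75 with tamoxifen and 2.79 and 1.48 in controls. Cox4i2, the form of subunit IV known from lung, read -1.54 and -1.25 in treated and -1.52 and -2.14 in control glomeruli, and -1.33 and -2.03 in tamoxifen-treated and -1.78 and -2.54 in mock cultures at day 4, and -1.40 and -1.96 in tamoxifen-treated and -1.47 and -2.73 in mock cultures at day 7. It too read higher in replicate 1 in each culture group, and its tamoxifen differences were 0.44 in glomeruli, 0.47 at day 4 and 0.42 at day 7 (SE 0.47 each). Cox6b2, a form known from testis, read -0.81 and -0.66 in treated and -1.15 and -1.08 in control glomeruli, and 0.77 and 0.76 in tamoxifen-treated and 0.49 and 0.88 in mock cultures at day 4, and 1.18 and 0.47 in tamoxifen-treated and 1.02 and 0.44 in mock cultures at day 7. It differed by 0.38, 0.08 and 0.10 (SE 0.27 each). None of these 5 restricted forms passed in a tamoxifen comparison.

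Mock cultures differed from control glomeruli in 27 of the 84 subunits, 15 of them higher and 12 lower. That is 32.1% of the subunits, beside 63.7% of all genes (37.8% higher and 25.9% lower). The 12 lower ones include Cox7b2, which passed the filter only through the control glomerular arrays. The subunit median was 0.04, where that of all genes was 0.18. All 4 mock arrays were above both control arrays for 20 subunits and below both for 16, where 42.2% and 29.2% of all genes were. This balance depended on scaling: it was 30 higher and 3 lower with arrays scaled to their median, and 10 higher and 37 lower with quantile normalization, while the median of all genes moved to 0.41 and 0.16.

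Split by role, a grouping made after the values were known, the calls ran in different directions. Of the 18 core subunits of complexes I, II, III and V, 0 were higher and 8 were lower in mock cultures, with a median of -0.13. Of the 48 other subunits of those complexes, 13 were higher and 3 were lower, with a median of 0.08. The 13 of 48 are a smaller share than the 37.8% of all genes called higher, and 0.08 lies below the median of 0.18 over all genes, while the 8 of 18 core subunits stand beside 25.9% of all genes called lower. The core median lay 0.22 below the other median. This gap could change with normexp background correction, quantile normalization, averaged probes, or without a control or mock array. In those settings the core median stayed below the other, by 0.16 to 0.29. The other alternatives shift whole arrays or keep the mock and control values of these genes, so they could not move the gap. With median scaling 2 core subunits were lower and 2 higher. Without control replicate 2 the core median was -0.03 and the other median 0.26.

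The largest core falls were those of Atp5a1, the alpha subunit of F1, and Cyc1, the cytochrome c1 of complex III. Atp5a1 read 4.57 and 4.30 in mock cultures at day 4 and 4.55 and 4.49 at day 7, against 5.18 and 5.27 in control glomeruli, and fell by 0.75 (SE 0.10, limma adjusted p = 0.00034). Cyc1 read 2.88 and 2.88 at day 4 and 3.03 and 3.17 at day 7 in mock cultures, against 3.63 and 3.71 in control glomeruli, and fell by 0.68 (SE 0.08, limma adjusted p = 0.00022). In both genes the 4 mock arrays lay well below both control arrays. Sdha fell by 0.43, Uqcrfs1 fell by 0.40, the core protein Uqcrc1 fell by 0.38, the NADH-binding flavoprotein Ndufv1 fell by 0.33 and Sdhb fell by 0.27, at limma adjusted p-values of 0.0037 to 0.033. With median scaling the 2 core subunits called lower were Atp5a1 and Cyc1, and Sdhb was at -0.03. Sdhc and Sdhd, the anchors of complex II, were at 0.09 and -0.22 and did not pass.

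Of the 13 other subunits that rose, 10 were accessory subunits of complex I, out of 29 such genes tested, a share just under the 37.8% of all genes called higher. Ndufv3, an accessory subunit next to the flavoprotein, read 5.60 and 5.47 at day 4 and 5.80 and 5.43 at day 7 in mock cultures, against 4.61 and 4.95 in control glomeruli, and rose by 0.80 (SE 0.15, limma adjusted p = 0.0018). Its other probe gave 0.13, and the rise was 0.47 with its probes averaged and 0.46 with quantile normalization. Ndufa3 rose by 0.79, Ndufa7 rose by 0.73, Ndufab1 rose by 0.70 and Ndufs4, an accessory subunit of the matrix arm, rose by 0.69. Without control replicate 1 Ndufa3 was at 0.52 and Ndufab1 at 0.40, where its call was lost. Ndufb8, Ndufa5 and Ndufb10 ran the other way and fell by 0.63, 0.39 and 0.33. These falls depended on settings: with median scaling none of the 3 passed, and without control replicate 2 they were at -0.34, -0.18 and -0.18, of which only Ndufb8 passed. Ndufa5 had an adjusted p of 0.0405 and lost its call in 10 of 12 fits that left out 1 array and in 4 of 10 other settings. In complex III Uqcrq rose by 0.61, and in complex V Atp5md rose by 0.64 and Atp5pb rose by 0.36 (limma adjusted p = 0.0033, 0.0018 and 0.026). Quantile normalization gave 0.24 for Uqcrq, 0.36 for Atp5md and 0.21 for Atp5pb, whose call was lost there, with its probes averaged and without control replicate 1 (0.18).

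In complex IV Cox6b2 and Cox5a rose, and Cox7b2 was called lower. Cox6b2 read 0.49 and 0.88 at day 4 and 1.02 and 0.44 at day 7 in mock cultures, against -1.15 and -1.08 in control glomeruli, a rise of 1.82 (SE 0.23, limma adjusted p = 0.00026). Its general counterpart Cox6b1 was at -0.01 (SE 0.13). Cox5a, a matrix-facing subunit, rose by 0.33 (limma adjusted p = 0.015), a call lost with quantile normalization and without control replicate 1 (0.20). Cox7b2 was not well above background on any mock array and was at least 1.21-fold lower there (limma adjusted p = 0.0017). It passed the filter only through the control glomerular arrays, so this call is not independent of the filter. With normexp background correction its difference was -0.16 and the call was lost (limma adjusted p = 0.27). The remaining 13 complex IV genes, Cox4i1 and Cox7a1 among them, did not pass.

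**Figure D5:**
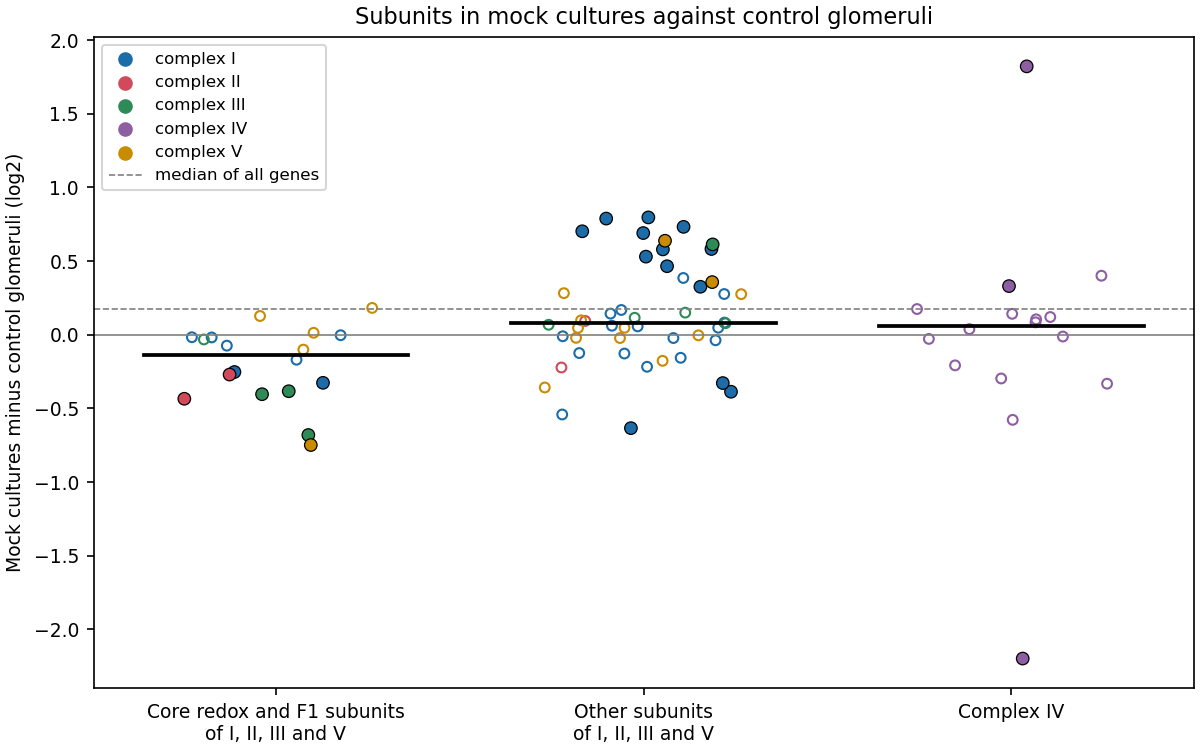
Each point is 1 subunit; the vertical axis is the log2 difference of mock cultures minus control glomeruli, and filled points were called. The 18 core subunits have a median of -0.13 with 8 called lower, the 48 other subunits of complexes I, II, III and V a median of 0.08 with 13 called higher and 3 lower, and the 16 complex IV subunits include Cox6b2 at the top and Cox7b2, which was below background in cultures, at the bottom. Ndufa4 and Ndufa4l2 are not drawn.

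Genes that help build the respiratory chain were also counted in this comparison. Of all genes 37.8% were called higher and 25.9% lower, with a median of 0.18. Of 43 assembly factors 23 were higher and 3 lower in mock cultures (median 0.40), with Tmem126a (1.30), Tmem70 (1.28) and Cox18 (1.22) at the top. Of 77 mitochondrial ribosome proteins 44 were higher and 3 lower (median 0.42). Of 18 fatty acid oxidation genes 9 were lower and 2 higher (median -0.37), Hadha, a subunit of the trifunctional protein, among them at -0.69. In the tricarboxylic acid cycle 4 were higher and 6 lower, with Idh2 at -1.36 and Mdh2 at 0.48. Of 18 glycolysis and hypoxia genes 14 were higher and 1 lower (median 1.16), for example Pgam1 at 1.79 and Ldha at 1.16. Called either way were 60.5% of the assembly factors, 61.0% of the ribosome proteins and 61.1% of the fatty acid oxidation genes. The share was 55.6% in the tricarboxylic acid cycle and 83.3% in glycolysis and hypoxia, beside 63.7% of all genes. These tissues also differed in their cells: all 19 proximal tubule markers and 17 of 20 podocyte markers were lower in mock cultures, with medians of -7.22 and -2.86, and their part in the subunit differences was not tested.

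Between day 7 and day 4 mock cultures 0 subunits were called by limma, beside 0.0329% of all genes (0.0263% higher and 0.00657% lower). Without adjustment 2 of 84 subunits had a limma p under 0.05, where 6.49% of all genes did. The day 7 mean was higher for 75 of 84, with a median of 0.11 beside 0.01 over all genes. The largest differences with an SE under 0.2 were those of Ndufb2 and Uqcrq. Ndufb2 read 3.14 and 2.98 at day 7 and 2.76 and 2.62 at day 4 in mock cultures (0.37, limma adjusted p = 0.72), and Uqcrq read 6.10 and 5.88 at day 7 and 5.73 and 5.51 at day 4 (0.37, limma adjusted p = 0.675). With quantile normalization the median of the subunits was -0.01, so this lean was not independent of scaling.

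Subunit genes are scattered over the genome, and shared promoter letters are one feature they have been known for. NRF1, a factor named for its role in respiratory genes, binds a GC-rich palindrome, and ETS family factors such as GABP bind a GGAA core. RefSeq promoter windows of GRCm38.p6, from 250 bases before to 50 after the start, were matched by symbol for 68 of the 84 subunits. The NRF1 core, GCGC then AT then GCGC with no gap, reads alike on both strands and lay in at least 1 window of 5 of the 68 genes (7.35%), against 1.90% of 12052 tested genes with a window. A looser form, GCGCA then any base then GCGC on either strand, includes the exact one and was in 17 of 68 (25%) against 9.65%. The ETS core CCGGAAG, on either strand, was in 17 of 68 (25%) against 17.1%, and AAGATGGCG, a core for the factor YY1, in 7 (10.3%) against 3.02%. The median GC content was 57.7% for the subunit windows and 59.7% for those of tested genes.

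The genes with the exact NRF1 core were Uqcrc1, Cox6a1, Atp5k, Atp5g2 and Ndufa11. The windows of the first 3 are shown, since Uqcrc1 and Cox6a1 have a further match of the looser form and Atp5k also has an ETS core, followed by those of Cox6b2, the largest called rise in cultures, and its general counterpart Cox6b1. Capitals mark matches of the looser NRF1 form and of CCGGAAG on either strand. Uqcrc1 lies at chr9:108936398-108936697 on the plus strand, Cox6a1 at chr5:115348909-115349208, Atp5k at chr5:108434350-108434649, Cox6b2 at chr7:4753045-4753344 and Cox6b1 at chr7:30626065-30626364, these last 4 on the minus strand.
Uqcrc1: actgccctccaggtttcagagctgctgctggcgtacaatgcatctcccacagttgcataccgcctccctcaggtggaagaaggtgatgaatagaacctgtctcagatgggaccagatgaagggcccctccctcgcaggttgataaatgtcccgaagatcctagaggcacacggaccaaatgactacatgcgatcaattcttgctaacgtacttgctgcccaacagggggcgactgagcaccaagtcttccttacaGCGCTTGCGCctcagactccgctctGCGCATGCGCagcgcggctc
Cox6a1: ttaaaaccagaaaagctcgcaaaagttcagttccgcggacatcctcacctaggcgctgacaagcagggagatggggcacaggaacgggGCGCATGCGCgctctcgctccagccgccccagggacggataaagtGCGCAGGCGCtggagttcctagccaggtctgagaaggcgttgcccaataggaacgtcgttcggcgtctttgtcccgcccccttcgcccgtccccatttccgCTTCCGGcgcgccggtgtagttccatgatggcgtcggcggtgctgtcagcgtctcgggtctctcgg
Atp5k: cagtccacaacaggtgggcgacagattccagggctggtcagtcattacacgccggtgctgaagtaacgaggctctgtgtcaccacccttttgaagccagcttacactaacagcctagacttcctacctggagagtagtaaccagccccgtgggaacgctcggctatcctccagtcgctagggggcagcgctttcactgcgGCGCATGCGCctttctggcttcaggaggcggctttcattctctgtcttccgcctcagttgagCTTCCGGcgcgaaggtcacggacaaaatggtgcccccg
Cox6b2: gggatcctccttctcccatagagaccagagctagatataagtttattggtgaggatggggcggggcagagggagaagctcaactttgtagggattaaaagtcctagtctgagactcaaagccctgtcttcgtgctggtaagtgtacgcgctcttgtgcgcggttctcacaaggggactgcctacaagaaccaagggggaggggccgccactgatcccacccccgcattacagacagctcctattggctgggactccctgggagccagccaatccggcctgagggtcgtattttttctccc
Cox6b1: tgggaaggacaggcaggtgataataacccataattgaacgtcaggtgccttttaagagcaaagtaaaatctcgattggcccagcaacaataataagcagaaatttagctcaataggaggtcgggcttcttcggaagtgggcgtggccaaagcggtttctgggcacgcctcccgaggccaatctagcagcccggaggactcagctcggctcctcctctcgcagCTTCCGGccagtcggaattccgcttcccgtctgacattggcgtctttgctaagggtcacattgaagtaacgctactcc
Both matches in Uqcrc1 fall just after the start and both NRF1 matches in Cox6a1 before it, while the Cox6b2 window holds neither motif and the Cox6b1 window holds an ETS core before its start. A match is a description of letters and not of binding. The 17 genes with the looser NRF1 form had median tamoxifen differences of 0.32 in glomeruli, 0.10 at day 4 and 0.10 at day 7, and the 51 without had 0.36, 0.15 and 0.17. For the ETS core they were 0.29, 0.19 and 0.18 with a match and 0.36, 0.14 and 0.15 without.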

How the data were processed

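RNA of 12 samples was hybridised to one-colour Agilent arrays. Per the file headers, the deposited intensity values are the processed signals that version 11.5.1.1 of Agilent's Feature Extraction software wrote. The deposited value table holds log2 values made by the authors; against the scanner signal its columns had r = 1.0, with medians of -4.14 to -3.82, and how it was centred is not given in the sources used here.

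Each array's processed signal was log2-transformed and its 75th percentile subtracted. Outlier spots were left out, spots of a probe averaged, and probes kept if well above background on at least 2 of 12 arrays. Of 39429 probes 26581 had 1 gene symbol, 0 several and 12848 none, through RefSeq accessions of GRCm38.p6. The brightest probe stood for a gene, and 15217 genes were tested. Among the 22 subunits with several probes, the probes of 3 disagreed in sign in glomeruli (Ndufb11, Ndufv3 and Cox7c), of 6 at day 4 (Ndufa5, Ndufv3, Sdhb, Uqcrb, Cox7a2l and Atp5l), of 6 at day 7 (Ndufb6, Uqcrb, Cox7a2l, Atp5c1, Atp5g2 and Atp5h), of 4 in mock cultures against glomeruli (Uqcr10, Uqcrb, Cox7c and Atp5l) and of 2 between mock days. A 6-group model was fitted with limma 3.58.1 in R 4.3.3, with Benjamini-Hochberg adjustment and a threshold of 0.05. The fit was tested on simulated data. The number of arrays limits precision.

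The subunits, the other gene lists and the split by role were chosen with earlier results of these data known. Values in every sample are given for the Sdh genes, the isoform pairs, subunits called in a tamoxifen comparison or response difference, and per complex those with the largest tamoxifen differences each way; for mock comparisons, called subunits with the largest differences each way; for other lists, up to 3 called genes. Atp5b, Ndufb9, Ndufb2, Pgk1, Ldha, Mdh2 and other genes outside this rule were chosen after their values were seen. Some genes that the rule names are not reported here. Alternatives covered background, scaling, filter, probe choice, replicate block, limma's trend option, the arrays fitted, the authors' table and leaving out each array. For normexp, 9 spots with local background above the spot were left out.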

Additional observations from a re-analysis of the deposited data

How the results depend on the processing

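The median tamoxifen difference of the subunits in glomeruli stayed positive under every alternative run, from 0.21 to 0.47 when single arrays were left out, but the count of 3 calls did not hold. It was 11 with normexp background correction, 8 with quantile normalization, 7 with limma's trend and robust options, 1 with median scaling, 1 without the filter on dim probes and 0 on the 4 glomerular arrays alone. Leaving out 1 array gave 0 to 17 calls, with 17 only without control replicate 2. In cultures 0 subunits were called at either time under every alternative. The day 4 median was 0.051 with quantile normalization. The day 7 median was 0.133 with probes of a gene averaged, 0.188 with median scaling, 0.082 with quantile normalization and 0.071 to 0.204 without single arrays. The gap between the glomerular and culture responses was 0.299 with quantile normalization and 0.038 to 0.358 without single arrays. That between day 7 and day 4 responses was 0.052 with median scaling and -0.038 to 0.073 without single arrays.

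For mock cultures against control glomeruli the median was 0.279 with median scaling and -0.242 with quantile normalization, which called 47 subunits. Core subunits called lower numbered 2 with median scaling, 14 with quantile normalization, 5 on the arrays compared alone and 4 to 7 without single arrays, the 4 without control replicate 2. Other subunits called higher numbered 23 with median scaling and 9 to 20 without single arrays, the 20 without control replicate 2. Between mock days the median was 0.042 with median scaling, -0.0072 with quantile normalization and 0.042 to 0.175 without single arrays.

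Cox5a in cultures reversed to -0.044 with quantile normalization. Without single arrays Ndufa4l2 ranged from -0.102 to 1.205 in glomeruli, -0.956 to 1.408 at day 4, -0.569 to 1.456 at day 7 and -1.246 to 0.061 in mock cultures against glomeruli. Cox4i2 ranged from -0.207 to 1.047 at day 7 and -0.610 to 0.017 in mock cultures, and Cox6a2 from -0.041 to 0.843 in mock cultures. The cause of these shifts was not tested. With the replicate number as a block 2 subunits were called in glomeruli, 0 at each culture time and 27 in mock cultures against glomeruli. Same-numbered culture arrays deviated together (r = 0.40 to 0.55 across all genes and 0.67 to 0.78 across the subunits), but treated and control glomeruli did so less or not at all (0.21 and -0.15); 2 numbers do not settle a pairing. The block over culture arrays alone, chosen after seeing the data, also gave 0 calls. A slide block could not be fitted, since each group lies on 1 slide.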
